A study of Mus musculus with 8 samples.

Results

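The genes described here are 31 markers of white blood cells, measured by RNA sequencing of mouse pancreatic islets. They were chosen by symbol for their known cell types, but with earlier results of these data known. Shares of members that rose are therefore descriptions and not independent of the data. All 31 were matched to 1 Ensembl identifier each among the 55414 genes counted. Of these genes, 4 mark white blood cells in general, 19 mark macrophages and other myeloid cells, and 8 mark T cells, NK cells or B cells. The 8 libraries came from islets of C57BL/6 mice aged 5 weeks, 4 per group. The TG group carried Ins2 cre(+/-), which places Cre recombinase under an insulin gene's name, together with ATF4 TG(+/-), a transgene for the stress-response transcription factor ATF4. The WT group also carried ATF4 TG(+/-) but was Ins2 cre(-/-), so the groups differ by the Cre driver and not by presence of the transgene. The TG mice are described as transgenic for ATF4 in beta cells, the insulin-secreting cells that make up most of a mouse islet. Whether a library stands for 1 animal or a pool is not stated, so p-values measure the spread between these samples, which may be technical.

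Islets hold a small resident population of macrophages, which lie against the capillaries, take up granules and dead cells, and depend on signalling through the receptor CSF1R. Their identity rests on the transcription factor PU.1, encoded by Spi1, and they express F4/80 (Adgre1), complement C1q and lysosomal proteases. Lymphocytes are scarce in islets of healthy mice. RNA of whole islets mixes all these cells with the endocrine cells, so fewer cells of a type and less RNA per cell cannot be told apart.

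The libraries held 16521087 to 22499999 counts assigned to genes. Beta-cell markers were present in all 8 libraries and summed lower in TG, at 50093 to 64198 CPM (counts scaled to a common library size with TMM factors), against 103120 to 123756 CPM in WT. Atf4 itself measured 261 ± 19.8 CPM in the TG-labelled libraries and 352 ± 21.1 CPM in the WT-labelled libraries (SD, n = 4 each; log2 fold change −0.43, adjusted p = 0.00226). This goes against the label, reads from the transgene may fall outside the Atf4 count, and every direction below is given for libraries as labelled. Over all genes, 4129 of 20509 tested (20.1%) were called at an adjusted p under 0.05 (edgeR quasi-likelihood test, two-sided, Benjamini-Hochberg adjustment, as for every adjusted p below). Acinar cell markers, a measure of exocrine tissue carried over, were uneven within the groups, with 7461 to 47687 CPM in TG and 1480 to 14496 CPM in WT.

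Most of the white blood cell genes that could be tested were higher in the TG-labelled islets, namely 4 of 4 pan-leukocyte, 12 of 19 myeloid and 2 of 5 tested lymphoid genes. Of the 31 genes, 28 had enough counts to be tested, 18 rose in TG, 0 fell and 10 did not pass the test. Of all genes tested, 12.1% rose and 8.06% fell. No member fell in DESeq2 or limma-voom either, while 1 was lower at an unadjusted p under 0.05 in edgeR. The median log2 fold change over the 28 genes was 0.93, where the median over all tested genes was −0.0019. Of the 31 genes, 14 had all 4 TG libraries above all 4 WT libraries, which was so for 12.6% of tested genes, and 0 had the reverse order, found for 9.94%. Among the tested genes, Cd3g passed the filter on low counts through the TG libraries alone, so it could be tested only if it differed. Of other members that rose, Cd79b passed it in 4 TG libraries and 1 WT library, and Itgam in 4 TG and 2 WT libraries. The tests of Cd79b and Itgam thus also depended on their TG libraries. Without TG replicates 2 and 3, which stood apart for several myeloid genes, 6 members were called higher (Ptprc, Coro1a, Cd52, Mrc1, C1qb and Mertk), with 5.62% of genes called higher in a comparison of 2 libraries against 4. Without WT replicate 2, 11 members were called higher, with 1742 of 21737 tested genes called higher.

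**Figure D1:**
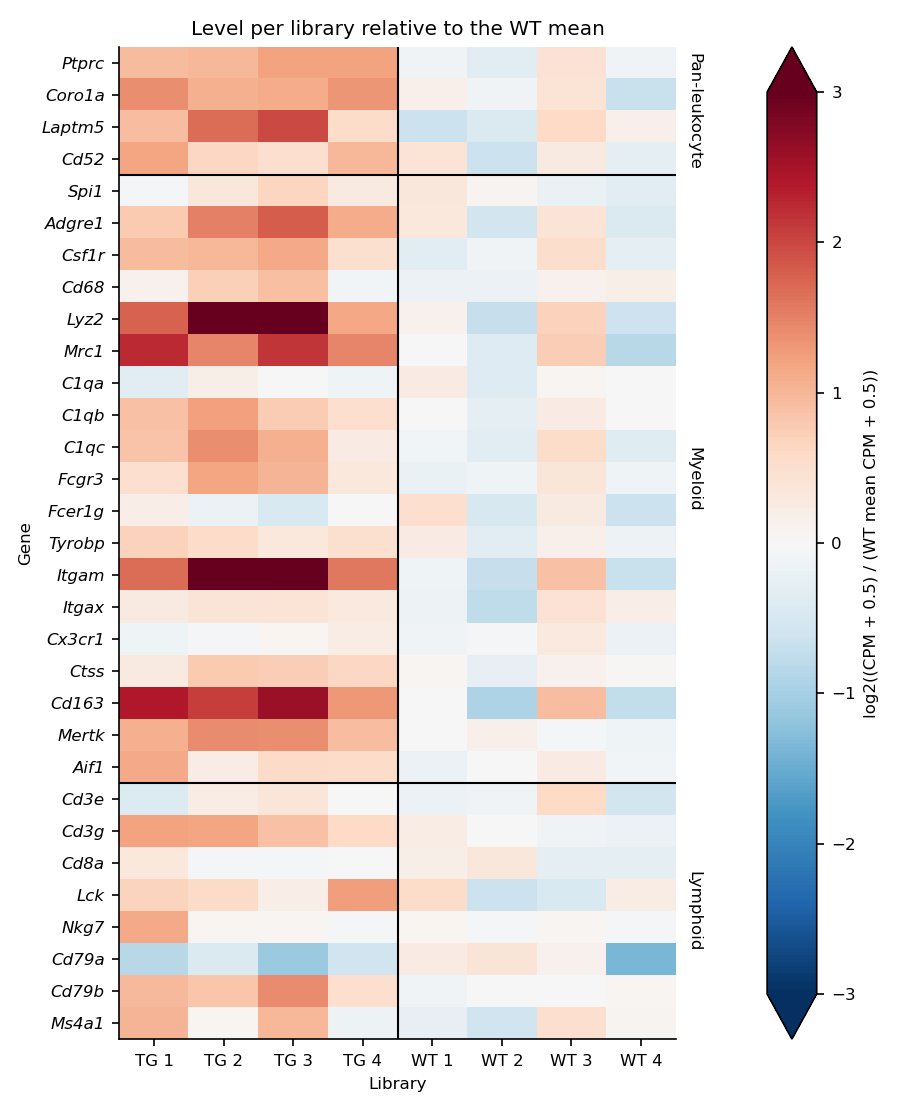
Level of each of the 31 genes (down the page, in 3 blocks by role) in each library (4 TG, then 4 WT), as log2 of CPM plus 0.5 over the WT mean CPM plus 0.5, with colours saturating at 3. Red cells fill most of the TG columns in the pan-leukocyte and myeloid blocks, Lyz2 and Itgam saturate in TG 2 and TG 3, and C1qa and Cx3cr1 stay pale in all 8 libraries.

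Genes that all white blood cells share were higher in TG. Ptprc, the CD45 phosphatase found on every nucleated blood cell, measured 19.9, 20.5, 23.9 and 23.8 CPM in TG replicates 1 to 4, against 9.32, 7.97, 13.7 and 9.29 CPM in WT replicates 1 to 4. The groups did not overlap, and WT replicate 3 was the highest of its group. Ptprc rose 2.18-fold (log2 fold change 1.13, SE 0.17, adjusted p = 0.00024). Coro1a, an actin-binding protein of white blood cells, stood at 23.7, 19.03, 19.6 and 22.6 CPM in TG against 9.85, 8.06, 11.8 and 5.38 CPM in WT, and rose by 1.27 on the log2 scale (SE 0.20, adjusted p = 0.000383). Its groups were apart as well, with WT replicate 4 the lowest library. Cd52, a small surface glycoprotein of lymphocytes and monocytes, averaged 6.89 ± 1.58 CPM in TG and 3.60 ± 1.33 CPM in WT (SD, n = 4 each; log2 fold change 0.93, adjusted p = 0.0265). The lysosomal protein gene Laptm5 averaged 7.66 ± 3.59 CPM in TG and 2.60 ± 1.21 CPM in WT (SD, n = 4 each; log2 fold change 1.57, adjusted p = 0.0128), and its groups overlapped slightly. Cd52 missed the threshold when any one of TG replicate 1 (0.80), TG replicate 4 (0.84), WT replicate 2 (0.73) or WT replicate 4 (0.83) was removed. Laptm5 fell short without TG replicates 2 and 3 together (0.82, adjusted p = 0.239).

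Of 5 genes that identify macrophages, Adgre1, Csf1r and Aif1 rose, while Spi1 and Cd68 did not pass the test. Adgre1, which encodes the F4/80 antigen of mature macrophages, had 7.56, 12.8, 15.9 and 9.57 CPM in TG and 5.31, 2.72, 5.74 and 2.99 CPM in WT (log2 fold change 1.45, SE 0.28, adjusted p = 0.00253). The groups did not overlap, and TG replicates 2 and 3 were the highest libraries. Csf1r, the receptor for the macrophage growth factors CSF1 and IL-34, measured 27.3, 28.0, 31.3 and 19.7 CPM in TG against 11.1, 12.9, 20.1 and 11.3 CPM in WT (0.94, SE 0.20, adjusted p = 0.00417). The lowest TG library lay just below WT replicate 3 for this gene. Spi1 averaged 1.89 ± 0.46 CPM in TG and 1.41 ± 0.40 CPM in WT (SD, n = 4 each; 0.42, SE 0.34, adjusted p = 0.453). Cd68, a lysosomal glycoprotein, was at 3.92 ± 1.41 CPM in TG and 2.69 ± 0.44 CPM in WT (0.55, adjusted p = 0.207), and at −0.01 without TG replicates 2 and 3. Aif1, an actin-bundling protein also called IBA1, averaged 6.28 ± 1.89 CPM in TG and 3.79 ± 0.56 CPM in WT (0.73, SE 0.24, adjusted p = 0.0443). Its call was lost without TG replicate 1 (0.51), TG replicate 3 (0.72), TG replicate 4 (0.73), WT replicate 1 (0.66), WT replicate 2 (0.71) or WT replicate 4 (0.69). Adgre1 (0.99, adjusted p = 0.0698) and Csf1r (0.72, adjusted p = 0.0672) missed the threshold without TG replicates 2 and 3 together.

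Lyz2 and Itgam showed the widest differences of all members, and most of their excess sat in the same pair of libraries. Lyz2, lysozyme of macrophages and neutrophils, measured 56.6, 273.8, 189.3 and 37.1 CPM in TG replicates 1 to 4, against 17.97, 9.95, 26.8 and 10.4 CPM in WT replicates 1 to 4. Itgam, the CD11b integrin chain, measured 3.29, 11.4, 11.4 and 3.02 CPM in TG against 0.58, 0.23, 1.67 and 0.24 CPM in WT. For both genes TG replicates 2 and 3 were far above TG replicates 1 and 4, and these in turn were above every WT library. Lyz2 rose by 3.09 (SE 0.79, adjusted p = 0.0395) and Itgam by 3.38 (SE 0.74, adjusted p = 0.0144) on the log2 scale. Without TG replicates 2 and 3 the log2 fold changes were 1.48 for Lyz2 (adjusted p = 0.11) and 2.15 for Itgam (adjusted p = 0.0524). Lyz2 missed the threshold without TG replicate 2 (2.53) or 3 (2.88), and without WT replicate 1 (3.13), 2 (2.91), 3 (3.44) or 4 (2.93), and Itgam without WT replicate 1 (3.30). Itgam reached 4.33 without WT replicate 3. Within a library, Lyz2 amounted to 207%, 978%, 605% and 189% of the Csf1r count in TG, against 162%, 76.9%, 133% and 92.4% in WT. Markers known from macrophages of the peritoneal cavity summed to 50.6, 111, 105 and 42.4 CPM in TG replicates 1 to 4 and to 25.1 to 33.8 CPM in WT, so the same TG libraries were high, and the part of such cells in the Lyz2 and Itgam values was not tested. Reads of Lyz2 can be split with its close relative Lyz1. Itgam shares 3450 of its 5024 exonic bases with the read-through gene Gm49368 in GENCODE M21, which held at most 4 counts in any library. Reads in the shared bases may have been left out as ambiguous, which would lower the Itgam counts and was not tested.

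**Figure D2:**
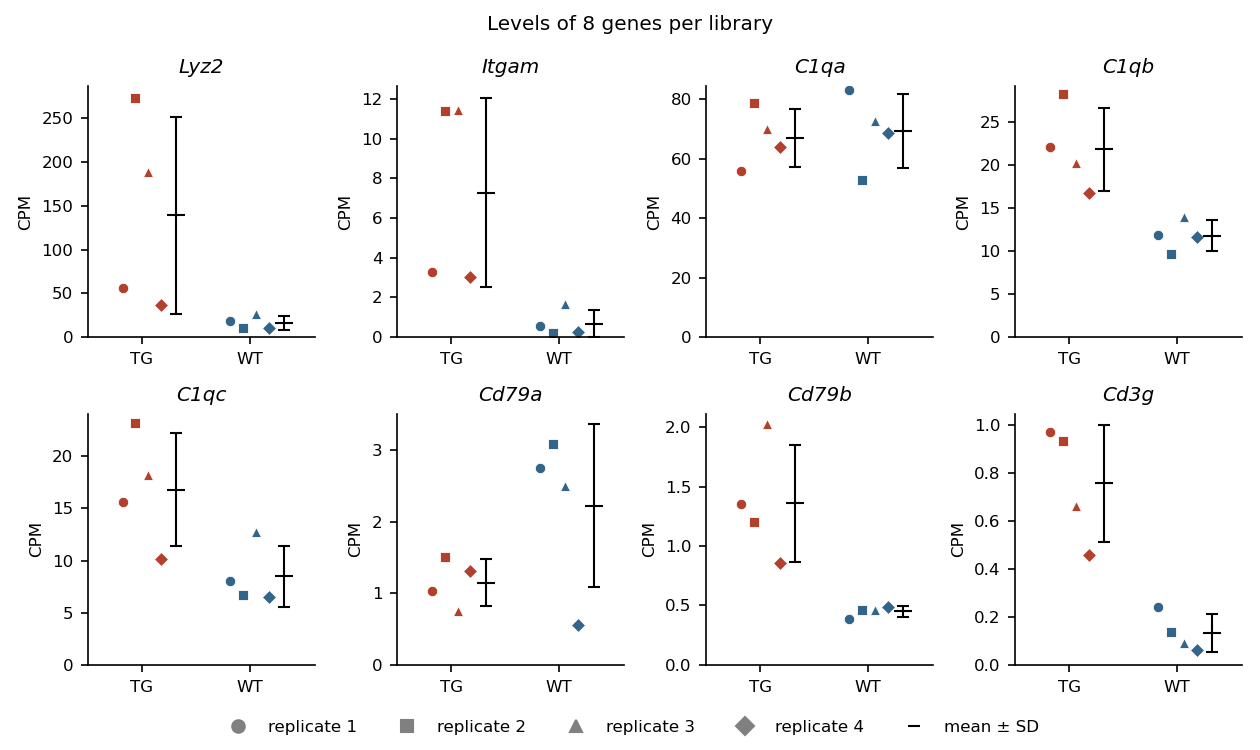
CPM of 8 genes in each library (TG left, WT right, one symbol per replicate number, bars giving mean ± SD of 4 libraries). Lyz2 and Itgam are highest in TG 2 and TG 3, C1qa overlaps between the groups while C1qb does not, and Cd79a is the one gene of the 8 with 3 WT libraries above every TG library.

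Scavenger receptors of tissue macrophages rose without that pairing of libraries. Mrc1, the mannose receptor CD206, had 29.4, 16.8, 27.5 and 16.9 CPM in TG against 5.85, 4.28, 9.999 and 3.05 CPM in WT (log2 fold change 1.96, SE 0.36, adjusted p = 0.00544). Cd163, the receptor that clears haemoglobin bound to haptoglobin, had 10.9, 8.71, 12.6 and 4.84 CPM in TG against 1.64, 0.64, 3.61 and 0.79 CPM in WT (2.45, SE 0.52, adjusted p = 0.00937). For both genes TG replicates 1 and 3 were the highest libraries and TG replicate 4 was near or at the bottom of its group, above all WT libraries. Cd163 was at 3.15 without WT replicate 3, and at 2.18 without TG replicates 2 and 3 (adjusted p = 0.0584). Mertk, a receptor tyrosine kinase by which macrophages take up apoptotic cells, showed the lowest adjusted p of the members. It measured 10.9, 13.8, 13.6 and 9.68 CPM in TG against 4.98, 5.53, 4.68 and 4.40 CPM in WT, a rise of 2.45-fold (1.29, SE 0.18, adjusted p = 0.000153). The 2 bridging proteins that link MERTK to dying cells were also higher, with Gas6 at 164 ± 45.5 CPM in TG and 48.8 ± 26.2 CPM in WT (1.74, adjusted p = 0.0277) and Pros1 at 55.3 ± 8.64 CPM in TG and 20.8 ± 6.97 CPM in WT (1.41, adjusted p = 0.000971; SD, n = 4 each). The call of Gas6, a gene that stromal and vessel cells also express, was lost without TG replicate 1 (1.61), TG replicate 3 (1.65), WT replicate 1 (1.68), WT replicate 2 (1.59) or WT replicate 4 (1.58).

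The 3 chains of complement C1q, which assemble in fixed proportion and in most tissues come from macrophages, did not move alike. C1qa measured 55.7, 78.5, 69.8 and 63.8 CPM in TG, against 82.9, 52.9, 72.8 and 68.7 CPM in WT. Its groups overlapped throughout (log2 fold change −0.05, SE 0.13, adjusted p = 0.849), and its sign turned with scaling by total gene counts (0.05). C1qb measured 22.1, 28.3, 20.2 and 16.8 CPM in TG against 11.9, 9.67, 14.03 and 11.6 CPM in WT, without overlap, and rose by 0.89 (SE 0.17, adjusted p = 0.00155). C1qc measured 15.7, 23.2, 18.2 and 10.1 CPM in TG against 8.02, 6.72, 12.7 and 6.48 CPM in WT, and rose by 0.98 (SE 0.27, adjusted p = 0.0212). C1qb amounted to 39.6%, 36.0%, 29.0% and 26.3% of the C1qa count in TG, against 14.3%, 18.3%, 19.3% and 16.9% in WT, so the ratio was higher in every TG library than in any WT library. The ratio of C1qc to C1qb overlapped between the groups, at 60.3% to 90.2% in TG and 55.8% to 90.8% in WT. On a scale of CPM per kilobase of exons, C1qa stood at 64.4 ± 9.27 in TG and 66.7 ± 11.98 in WT, C1qb at 20.1 ± 4.42 in TG and 10.8 ± 1.64 in WT, and C1qc at 8.70 ± 2.82 in TG and 4.40 ± 1.51 in WT (SD, n = 4 each). C1qa was thus the highest of the chains per length in both groups, and GENCODE M21 lists no other gene that overlaps its exons. The call of C1qc was lost without TG replicate 2 (0.79), TG replicate 3 (0.92), WT replicate 1 (0.95), WT replicate 2 (0.88) or WT replicate 4 (0.87), and it was at 0.56 (adjusted p = 0.245) without TG replicates 2 and 3 together.

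Among the remaining 6 myeloid genes, 2 rose. Ctss, a protease of antigen-presenting cells that trims the invariant chain, measured 89.2, 128, 123 and 113 CPM in TG against 77.3, 62.3, 80.0 and 75.2 CPM in WT (log2 fold change 0.62, SE 0.12, adjusted p = 0.00145), and was at 0.42 (adjusted p = 0.0662) without TG replicates 2 and 3. Fcgr3, a low-affinity receptor for immunoglobulin G, averaged 10.5 ± 3.10 CPM in TG and 5.82 ± 1.25 CPM in WT (SD, n = 4 each; 0.85, adjusted p = 0.0149). Its call was lost without TG replicate 2 (0.69), TG replicate 3 (0.74) or WT replicate 2 (0.80), its value was 0.40 without TG replicates 2 and 3 together, and reads may be split with related Fc receptor genes. Fcer1g, the signalling chain that these receptors share, averaged 3.62 ± 0.78 CPM in TG and 3.91 ± 1.69 CPM in WT (SD, n = 4 each; −0.12, SE 0.31, adjusted p = 0.837). Tyrobp, the adaptor DAP12, did not overlap between groups, at 1.99 to 2.699 CPM in TG against 1.11 to 1.84 CPM in WT, but missed the threshold (0.65, SE 0.31, adjusted p = 0.158). Itgax, the CD11c integrin chain carried by most islet macrophages and by dendritic cells, measured 4.43 to 4.90 CPM in TG and 1.93 to 5.05 CPM in WT (0.38, SE 0.27, adjusted p = 0.377). Cx3cr1, the fractalkine receptor, stood at 4.43, 4.71, 5.12 and 5.87 CPM in TG against 4.54, 4.79, 6.11 and 4.28 CPM in WT, with full overlap (0.03, SE 0.21, adjusted p = 0.953). The sign of Cx3cr1 turned with upper-quartile scaling (−0.01).

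**Figure D3:**
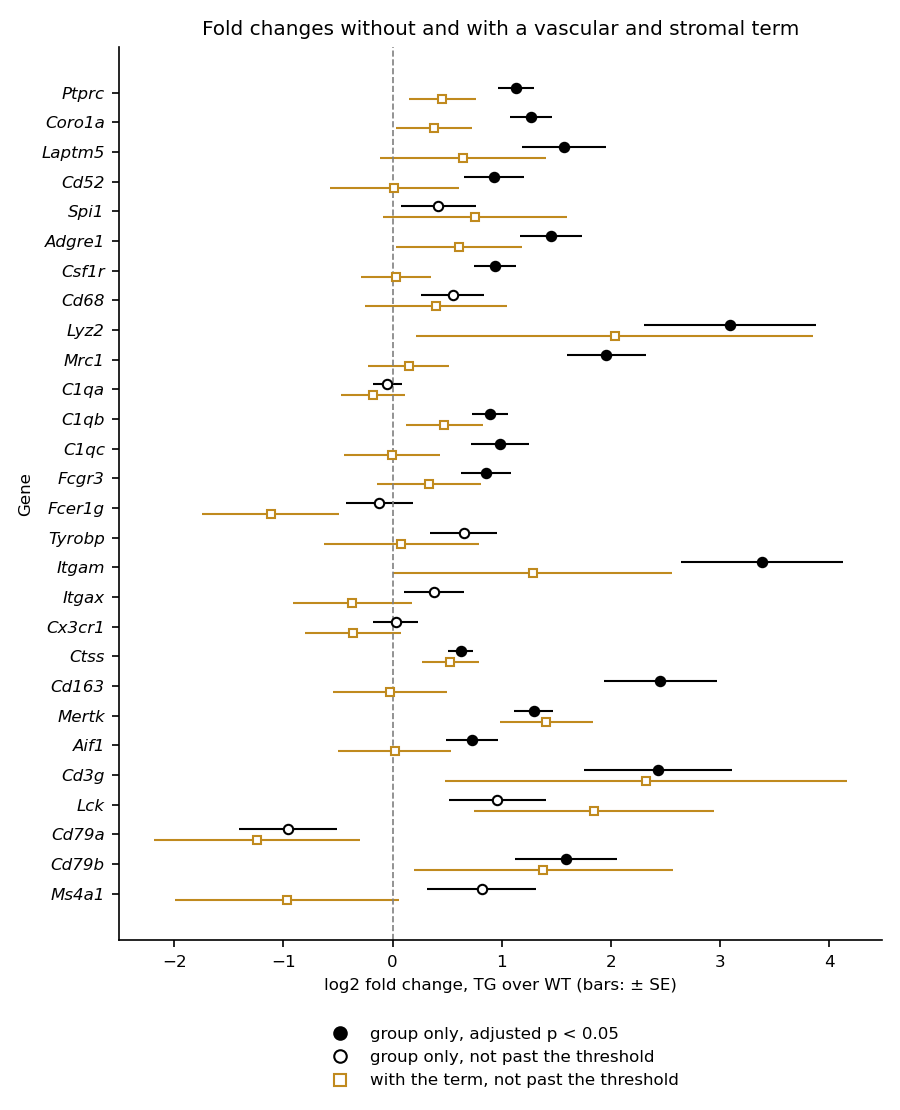
Log2 fold change of TG over WT for the 28 tested genes, with bars of ± SE, from the fit with group alone (black circles, filled where the adjusted p is under 0.05) and from the fit that also holds the mean level of vessel and stromal markers (gold squares). The 18 filled circles lie at 0.62 or above, and with the added term every square is open.

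The promoter sequences of members that rose are shown to set the letters of a PU.1 site beside the genes. RefSeq promoters (GRCm38.p6) were given for 23 of the 31 genes. The 250 bases before the start site were searched on both strands for GAGGAA, the core letters that PU.1 binds and that other ETS factors also accept. The letters were present in 14 of the 23 genes, 8 of 14 myeloid, 4 of 6 lymphoid and 2 of 3 pan-leukocyte, or in 15 of 27 member promoters (55.6%). Of 32851 promoters in the table, 23.3% held them. The longer run GAGGAAGT, which contains the core, was found in 1 member promoter, that of C1qc, and in 2.44% of all promoters. Below, the core is in capitals, and appears as TTCCTC where it lies on the other strand. The GAGGAA letters were not confined to members that rose. They were present for Cd68, Cd79a, Lck, Cd3e and Cd8a, which were not called or not tested. Coro1a, Lyz2, Cd163, Mertk and Cd3g rose without them. The sequences shown are those of C1qb and C1qc, the C1q chains that rose, of Itgam and Lyz2, which had the widest differences, and of Mrc1. No promoter was given for C1qa, so the chain that did not rise cannot be compared. Lyz2 holds no match in this window, C1qb and C1qc hold 1 each, Itgam holds 2 and Mrc1 holds 3.
C1qb (chr4:136886201-136886450, minus strand): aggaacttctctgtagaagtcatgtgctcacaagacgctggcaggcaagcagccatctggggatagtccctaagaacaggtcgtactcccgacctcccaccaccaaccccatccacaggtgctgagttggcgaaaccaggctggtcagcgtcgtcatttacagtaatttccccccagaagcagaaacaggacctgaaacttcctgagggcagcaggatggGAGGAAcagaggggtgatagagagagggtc
C1qc (chr4:136892915-136893164, minus strand): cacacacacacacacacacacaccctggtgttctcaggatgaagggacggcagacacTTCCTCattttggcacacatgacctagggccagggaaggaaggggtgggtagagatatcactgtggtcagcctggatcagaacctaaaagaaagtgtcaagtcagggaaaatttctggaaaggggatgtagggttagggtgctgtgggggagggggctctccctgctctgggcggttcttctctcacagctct
Itgam (chr7:128062390-128062639, plus strand): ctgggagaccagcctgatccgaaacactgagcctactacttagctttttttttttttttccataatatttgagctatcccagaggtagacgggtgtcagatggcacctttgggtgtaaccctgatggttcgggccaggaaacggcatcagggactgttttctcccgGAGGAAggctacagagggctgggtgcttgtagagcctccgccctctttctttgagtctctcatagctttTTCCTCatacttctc
Lyz2 (chr10:117282273-117282522, minus strand): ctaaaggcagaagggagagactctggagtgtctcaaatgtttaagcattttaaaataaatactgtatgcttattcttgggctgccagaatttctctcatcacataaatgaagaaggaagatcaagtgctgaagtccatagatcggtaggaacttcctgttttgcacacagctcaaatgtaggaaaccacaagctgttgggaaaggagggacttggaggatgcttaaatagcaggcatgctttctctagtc
Mrc1 (chr2:14229164-14229413, plus strand): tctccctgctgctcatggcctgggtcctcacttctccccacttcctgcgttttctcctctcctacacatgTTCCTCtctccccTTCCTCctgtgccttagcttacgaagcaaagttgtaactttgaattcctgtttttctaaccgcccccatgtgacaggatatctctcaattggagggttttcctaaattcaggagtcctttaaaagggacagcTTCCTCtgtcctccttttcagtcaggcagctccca
A match is a run of letters and no measured binding, and its absence says only that these letters are not in this window.

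Lymphocyte genes had low counts, and 4 of the 8 averaged below 1 CPM in both groups. Of the 8, 3 were too low to test, 2 rose, and 3 did not pass the test. Of all genes tested, 12.1% rose. The tests of the 2 that rose, Cd3g and Cd79b, depended on their TG libraries passing the filter on low counts. Without a filter, or with a filter of 1 CPM in 4 libraries, 0 lymphoid members were called higher. A count of 3, the limit that a count of 0 allows, equals 0.132 to 0.183 CPM in these libraries. The T-cell receptor chains gave few reads. Cd3e had 1, 8, 10 and 4 counts in TG against 3, 4, 13 and 0 counts in WT, and Cd8a, a co-receptor of cytotoxic T cells, had 5, 2, 2 and 2 counts in TG against 4, 6, 0 and 0 counts in WT. Nkg7, a granule protein of cytotoxic cells, had 12 counts in TG replicate 1 and at most 1 in every other library. Cd3g had 18, 21, 15 and 8 counts in TG against 5, 3, 2 and 1 counts in WT, without overlap (log2 fold change 2.43, SE 0.67, adjusted p = 0.019). Its call was lost without TG replicate 1 (2.30), TG replicate 3 (2.46), WT replicate 2 (2.44), WT replicate 3 (2.28) or WT replicate 4 (2.22). Without TG replicate 2, Cd3g did not pass the filter on low counts and was not tested. Its partner Cd3e did not separate the groups. Lck, a kinase of T-cell receptor signalling, averaged 2.11 ± 0.81 CPM in TG and 1.08 ± 0.62 CPM in WT (SD, n = 4 each; 0.96, adjusted p = 0.15).

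Of the 2 chains that pair in the B-cell receptor, Cd79b rose and Cd79a did not pass the test. Cd79b had 25, 27, 46 and 15 counts in TG against 8, 10, 10 and 8 counts in WT, or 1.36 ± 0.49 CPM in TG and 0.45 ± 0.04 CPM in WT (SD, n = 4 each), and rose by 1.59 on the log2 scale (SE 0.47, adjusted p = 0.0256). Cd79a had 19, 34, 17 and 23 counts in TG against 57, 67, 54 and 9 counts in WT. WT replicates 1 to 3 were above all TG libraries and WT replicate 4 below all of them, so the groups overlapped (−0.96, SE 0.45, adjusted p = 0.157). Without WT replicate 4, Cd79a was called lower in TG (−1.28, adjusted p = 0.0211), the only fall called for a member in any alternative run. Ms4a1, the B-cell antigen CD20, averaged 1.56 ± 0.84 CPM in TG and 0.89 ± 0.46 CPM in WT (SD, n = 4 each; 0.82, adjusted p = 0.293). The call of Cd79b was lost without TG replicate 1 (1.602), TG replicate 3 (1.29), WT replicate 1 (1.52) or WT replicate 2 (1.596).

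Myeloid and lymphoid genes were then set against each other within each library. The 19 myeloid genes summed to 366, 664, 574 and 339 CPM in TG, against 255, 191, 286 and 220 CPM in WT, 2.04-fold higher by the means. Without Lyz2 these sums were 310, 390, 385 and 302 CPM in TG against 237, 181, 259 and 210 CPM in WT, 1.56-fold higher. The 8 lymphoid genes summed to 8.64, 6.93, 7.59 and 6.95 CPM in TG, against 6.28, 5.07, 5.83 and 3.42 CPM in WT, 1.46-fold higher. Both sums were higher in every TG library than in any WT library. The lymphoid sum was 2.36%, 1.04%, 1.32% and 2.05% of the myeloid sum in TG, against 2.46%, 2.65%, 2.04% and 1.55% in WT, with overlap. A ratio of the 2 sums gave 0.78 for TG over WT, but 1.66 when each gene was first divided by its own mean and the median gene was taken. The myeloid sum leans on Lyz2, C1qa and Ctss and the lymphoid sum on Cd79a, and without Cd79a the lymphoid sum averaged 6.38 CPM in TG and 2.93 CPM in WT. No direction for myeloid against lymphoid genes is therefore given.

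**Figure D4:**
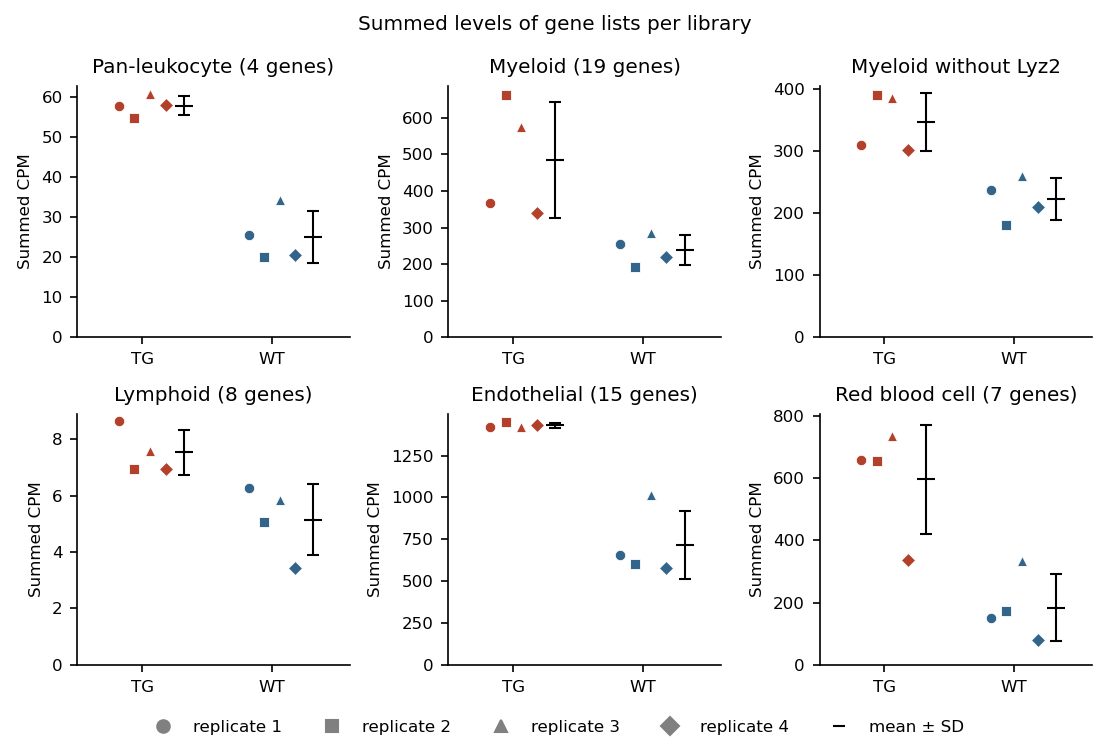
Summed CPM of 6 gene groups per library (TG left, WT right, one symbol per replicate number, bars giving mean ± SD of 4 libraries, each axis starting at 0). Every TG library is above every WT library in each panel, TG 2 and TG 3 are highest for the myeloid sum, and WT 3 is the highest WT library in all panels but the lymphoid one.

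Other myeloid and lymphoid genes were measured as well, and so were ligands of members and complement genes, which were not listed as markers of these cells. Of 23 further myeloid genes, 15 rose and 0 fell (median log2 fold change 1.16), among them Irf8, a transcription factor of monocytes and dendritic cells (1.29, SE 0.23, adjusted p = 0.000931), Cd14, a co-receptor for bacterial lipopolysaccharide (1.68, SE 0.31), and Cd84, a homotypic adhesion receptor (1.14, SE 0.23). Of 27 further lymphoid genes, 18 were tested, 3 rose and 0 fell (median 0.78), a share near the 12.1% of all tested genes that rose. Among those that rose were Il7r, the interleukin 7 receptor (1.24, adjusted p = 0.0212), and Cd2, an adhesion receptor of T cells (2.02, adjusted p = 0.0214). Single libraries decided both calls. Il7r was lost without TG replicate 1 (1.03), WT replicate 1 (1.02) or WT replicate 2 (1.18), and Cd2 without TG replicate 3 (1.68) or WT replicate 2 (1.76). Cd2 passed the filter on low counts in 4 TG libraries and 1 WT library, so its test depended on the TG libraries. Of the ligands that members bind, Il34 rose (1.35, SE 0.29, adjusted p = 0.00367) at 5.07 ± 1.29 CPM in TG and 1.98 ± 0.58 CPM in WT, while Csf1 (0.28, adjusted p = 0.253) and Cx3cl1 (0.02, adjusted p = 0.963), the ligand of CX3CR1, did not pass the test. The sign of Cx3cl1 turned with upper-quartile scaling (−0.01). Of 10 complement genes apart from C1q, 9 were tested, 6 rose and 0 fell (median 1.57), including the inhibitor Serping1 (0.95, SE 0.11, adjusted p = 3.91e-05), C3 (2.06, adjusted p = 0.00777) and C1ra (1.78, adjusted p = 0.0108).

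Of markers of other white blood cells, few passed the test. Of 10 neutrophil genes, 5 were tested and S100a9, a calcium-binding protein abundant in neutrophils, rose. The neutrophil list summed to 5.08 to 13.7 CPM in TG and 1.47 to 5.25 CPM in WT. The call of S100a9 (2.09) was lost without TG replicate 1 (1.54), WT replicate 1 (1.96), WT replicate 2 (1.74) or WT replicate 4 (1.90), and it was at 3.12 without WT replicate 3. S100a9 passed the filter on low counts in 4 TG libraries and 1 WT library, so its test depended on the TG libraries. Of 9 dendritic cell genes, 7 were tested and Zbtb46 (0.69) and Clec9a (0.69) rose, and the list summed to 32.8 to 33.5 CPM in TG and 17.5 to 27.2 CPM in WT. Zbtb46 made up the larger part of these sums, averaging 19.3 CPM in TG and 11.9 CPM in WT. Its sign turned in the fit that also holds the level of vessel and stromal markers. Clec9a fell short without any one library other than TG replicate 1, at 0.53 to 0.75. Of 6 mast cell genes, 2 were tested and edgeR called 0, with Cpa3 at an unadjusted p under 0.05 (adjusted p = 0.0829), and the list summed to 5.47 to 11.6 CPM in TG and 4.56 to 5.60 CPM in WT. Hdc made up most of the mast cell sum in WT, averaging 5.18 CPM in TG and 4.48 CPM in WT (log2 fold change 0.21). The WT sum thus says little of the rest of that list.

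Vessel, stromal and red blood cell markers rose together with the white blood cell genes. All 15 endothelial genes were higher in TG, with summed levels of 1418 to 1453 CPM in TG and 580 to 1017 CPM in WT, and 10 of 14 stromal genes were higher, at 3559 to 6815 CPM in TG and 908 to 2928 CPM in WT. Of 7 red blood cell genes, 3 were higher (Hba-a2, Alas2 and Slc4a1), at 337 to 733 CPM in TG and 81.0 to 333 CPM in WT. Alas2 missed the threshold without TG replicate 1, TG replicate 2, WT replicate 1 or WT replicate 2 (1.41 to 1.58), and Hba-a2 without any one library but TG replicate 4 or WT replicate 3 (1.26 to 1.48). WT replicate 3 had the highest endothelial, stromal and red blood cell sums of the WT libraries, and was also the highest WT library for 18 of the 31 members. Set against endothelial genes, the pan-leukocyte sum was 4.07%, 3.77%, 4.27% and 4.05% in TG and 3.89%, 3.31%, 3.36% and 3.53% in WT, a range that overlapped, where the sum by itself was 2.31-fold higher in TG. The myeloid sum without Lyz2 was 21.0% to 27.1% of the endothelial sum in TG and 25.5% to 36.2% in WT, and the lymphoid sum 0.477% to 0.609% in TG and 0.573% to 0.953% in WT, both with overlap. With the mean log2 level of endothelial and stromal genes as a term, whose values separate the groups and under which the median gene had a 2.03-fold larger standard error, edgeR called 0 of the 28 tested members, against 0.609% of genes called higher. With this term 1 member, Mertk, had an unadjusted p under 0.05 (log2 fold change 1.41, adjusted p = 0.155), and the median over the 28 members was 0.36. Of the 18 members called without the term, 16 had values above 0 with it, at adjusted p of 0.155 to 0.999 for the 18. Examples were Ctss (0.53, SE 0.26), Ptprc (0.45, SE 0.31) and Lyz2 (2.03, SE 1.82). Values near 0 were found for Csf1r (0.03, SE 0.32), Mrc1 (0.15, SE 0.37), C1qc (−0.01, SE 0.44) and Cd163 (−0.02, SE 0.52). With SEs this wide, the fit cannot set these genes apart. The group and the amount of vessel and stromal RNA cannot be told apart in these libraries. With the acinar markers as a term, 13 members were called higher, against 9.4% of genes, and the calls of Cd52 (log2 fold change 0.70, adjusted p = 0.0996), Lyz2 (log2 fold change 3.04, adjusted p = 0.0912), C1qc (log2 fold change 0.85, adjusted p = 0.055), Aif1 (log2 fold change 0.56, adjusted p = 0.177) and Cd3g (log2 fold change 2.10, adjusted p = 0.0717) were lost.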

How the data were processed

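The deposited files give whole-number read counts per Ensembl mouse gene for each library, not normalized by the authors. Per the submitters' processing notes, the tools were STAR 2.7.10a and HTSeq 0.11.3 and the build was mm39. The strand setting of the counting was not given, so reads of genes on opposite strands cannot be told apart for Coro1a, Cd52, Csf1r, Cx3cr1 and Cd3e, whose exons overlap another gene. Reads that HTSeq assigned to no feature (25.3% to 31.5% of each table) and ambiguous reads (3.74% to 4.36%) were left out. Symbols came from GENCODE M21, an earlier build, which gave names to 52081 of 55414 identifiers and exon lengths, and the only coordinates given are those of RefSeq promoters on GRCm38.p6. Libraries within each group differed by more than sampling noise (chi-square per gene 16.9 to 56.7), so none was merged.

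Genes were filtered with filterByExpr (minimum count 10, 20509 kept), scaled by TMM, expressed as CPM (counts scaled to a common library size) and compared with edgeR 4.0.16 in R 4.3.3 (quasi-likelihood, robust, two-sided), and called at an adjusted p under 0.05. Intervals between libraries are SDs, and limits cover counting error only. Sums over genes were described without a test. Alternatives were DESeq2 1.42.0, limma-voom 3.58.1, other scalings and filters, the replicate number as a block, acinar or vascular and stromal covariates and each library left out; removing TG replicates 2 and 3 together was chosen after seeing the data. In each of 4 simulations over 20509 genes of the TG against WT comparison, 200 genes were changed. There edgeR recovered 23.1% of 1.5-fold changes, 53.4% at 2-fold and 81.8% at 4-fold, while 6.24% of its calls were false. In the data 4129 genes were called, a far larger share, so these rates may not hold for the data. The genes named were all members, the ligands, and up to 3 genes with the lowest adjusted p of other lists, except 1 gene that is not reported here. Members and lists were chosen with earlier results of these data known. Figures were drawn with matplotlib 3.10.9.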

Additional observations from a re-analysis of the deposited data

Results flagged for a closer look

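In 3 of 76 groups of 4 libraries checked, 1 library stood far from the other 3, and chance flags about 1 in 20 groups. Nkg7 was at 0.648 CPM in TG replicate 1 and between 0 and 0.0445 CPM in the other TG libraries. Cd8a was at 0.27 CPM in TG replicate 1, against 0.0883 to 0.114 CPM in the other TG libraries, a difference of 5 counts to 2. Fcgr3 was at 7.68 CPM in WT replicate 3 and at 4.98 to 5.32 CPM in the other WT libraries.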

How the results depend on the processing

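Of the 18 members called higher, 10 (Ptprc, Coro1a, Laptm5, Adgre1, Csf1r, Mrc1, C1qb, Ctss, Cd163 and Mertk) were also called without each library in turn and under every scaling, filter, tool, block and acinar setting run. With the vascular and stromal term, 125 genes were called higher and 186 lower, with 0 members, 0 pan-leukocyte, 0 myeloid, 0 lymphoid, 0 other myeloid and 0 other lymphoid genes higher. That fit gave log2 fold changes of −0.0051 for C1qc, −0.37 for Itgax, −0.37 for Cx3cr1, −0.023 for Cd163, −0.97 for Ms4a1, −0.24 for Csf1, −0.34 for Cx3cl1, −0.032 for Gas6, −0.027 for C1ra, −1.13 for S100a9, −0.13 for Zbtb46 and −0.18 for Hba-a2. Without TG replicates 2 and 3, chosen after seeing the data, 1267 genes were higher and 987 lower, with 6 members, 3 myeloid, 0 lymphoid, 4 other myeloid and 0 other lymphoid genes higher, and log2 fold changes of −0.011 for Cd68, −0.26 for C1qa, 0.058 for Fcer1g and −0.31 for Cx3cl1. The acinar term left 1 lymphoid member, 9 other myeloid and 1 other lymphoid gene higher, with Cx3cl1 at −0.085. Scaling by total gene counts moved the median of all genes by 0.09, left 978 genes lower and put C1qa at 0.049, and upper-quartile scaling put Cx3cr1 at −0.0083 and Cx3cl1 at −0.011. Lymphoid members called higher numbered 1 in DESeq2, 0 without a filter and 0 with a filter of 1 CPM, and other lymphoid genes 5, 6 and 1 under the same settings.

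Leaving out each library in turn gave 1691 to 2622 genes higher, 1122 to 2131 lower, 11 to 16 members higher, 0 to 1 member lower, 8 to 11 myeloid and 0 to 2 lymphoid members higher, and 1 to 5 other lymphoid and 10 to 17 other myeloid genes higher. Over the same removals the log2 fold change ran from −0.16 to 0.043 for C1qa, from −0.30 to 0.12 for Fcer1g, from −0.083 to 0.14 for Cx3cr1 and from −0.17 to 0.12 for Cx3cl1, and for Cd68 it stayed above 0, up to 0.68. The myeloid sum in WT was 165 CPM without Ctss, the lymphoid sum 6.38 CPM in TG and 2.93 CPM in WT without Cd79a, and the lymphoid to myeloid ratio of TG over WT 1.66 by the median gene. With the replicate number as a block, 15 members and 1 lymphoid member were called higher. Libraries with the same number did not deviate together (0 of 4 pairs correlated above 0.1, and 2 of 4 correlated best with their own number). The cause of these changes was not tested. Counts of at most 21 per library for Cd3e, Cd3g, Cd8a and Nkg7 limit what can be seen of them at this depth.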
